A study of Mus musculus with 6 samples.

Results

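The receptors examined here are those through which a T-cell senses lipids and nucleotides outside itself. They were selected by gene symbol, with earlier results of these data known: *Gpr183*, *Ptger2*, *Ptger4*, *Lpar6*, *P2ry10*, *P2ry14*, *P2rx7*, *Gpr18*, *Gpr174* and *Adora2a*, which makes 10 genes. Of these, 9 had a row on the expression array, out of 19752 genes with a row in all, and *Adora2a* was not analysed here. All but 1 of the 9 are G protein-coupled receptors. The exception, *P2rx7*, encodes an ion channel opened by extracellular ATP and is kept in the group because it shares its ligand family.

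The arrays measured RNA from mature CD4 single positive (SP) thymocytes of mice that carry the OT-II transgene, a single T-cell receptor that recognises an ovalbumin peptide on MHC class II. The sorted cells were high for the transgenic Va2 chain and low for CD24, a surface protein that is lost late in thymic maturation. There were 3 wild-type arrays and 3 dKO arrays. In the dKO mice a Cre recombinase driven by the *Cd4* promoter removed floxed alleles of *Kdm6a* and *Kdm6b*, which encode the H3K27 demethylases UTX and JMJD3, and the label gives this genotype as Jmd3f/f-utxf/f. The wild-type animals were littermates without Cre that carry floxed alleles, and both groups carry the OT-II transgene. The study used female mice unless it stated otherwise, and the labels give no age. Because *Cd4* is already expressed in CD4+CD8+ double positive (DP) thymocytes, the deletion precedes the mature stage that was sorted. The comparison asks which genes of these cells depend on the demethylases.

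G protein-coupled receptors for lipids and nucleotides steer lymphocytes along gradients and raise or lower their activation threshold. The outcome depends on the G protein that each receptor engages: Gi lowers cyclic AMP and drives migration, Gs raises cyclic AMP, and G12 and G13 act on the cytoskeleton through RhoA. In mature thymocytes the best known member of this wider class is *S1pr1*, the sphingosine-1-phosphate receptor that takes cells out of the thymus into blood. On these arrays *S1pr1* was lower in dKO cells by 4.29 on the log2 scale (SE 0.08, adjusted p = 8.27e-10).

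Values are log2 intensities after normalisation across arrays, so that a difference of 1 is a 2-fold change. Each array value is given first, the 3 wild-type arrays before the 3 dKO arrays. Unless another test is named, adjusted p-values are from limma with Benjamini-Hochberg correction over all 19752 genes. A gene is called at an adjusted p under 0.05. A further test, called plain or the methods' test below, was run here on the same arrays. The study's methods state it for comparisons other than those of the arrays, so its results are not the authors' array analysis. Probes differ in brightness, so levels were compared between genotypes and never between genes. The median gene lay between 6.27 and 6.33 on the 6 arrays and the first quartile lay between 5.02 and 5.06, a level below which signal and array background are hard to separate. Arrays correlated at 0.9979 to 0.9988 within a genotype and at 0.9914 to 0.9931 between genotypes. *Kdm6a* fell by 0.67 (SE 0.06, adjusted p = 2.62e-05), from 10.16 ± 0.05 to 9.49 ± 0.09 (SD, n = 3), and *Kdm6b* differed by -0.09 (adjusted p = 0.324). An array probe set that reads exons outside the floxed segment can keep its signal, so these values are a weak check of the deletion. For thymocytes of mice with *Cd4*-Cre and floxed *Kdm6b* or *Kdm6a*, the study reports PCR of genomic DNA for the deletion. It also reports loss of the proteins by immunoblot. The labels do not say that the replicates of a genotype came from separate mice, and p-values then measure only the spread between these samples.

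Of the 9 receptors, 4 were higher in dKO cells (*Gpr183*, *Gpr18*, *Ptger4* and *Lpar6*), 2 were lower (*P2rx7* and *Gpr174*) and 3 did not pass the test (*Ptger2*, *P2ry10* and *P2ry14*). Among all genes tested, 13.1% were called higher and 10.0% were called lower. The 3 wild-type and 3 dKO values did not overlap for 7 of the 9 receptors, a state found for 37.7% of all genes. The median size of the difference was 0.30 over the 9 receptors and 0.08 over all genes. The receptors were chosen with earlier results of these data known, and 8 of the 9 were among the 50% brightest genes. These medians are therefore not of like sets of genes. The median of the signed difference was -0.10, against 0.006 over all genes, since the receptors moved in both directions. The largest change was the fall of *P2rx7*, the only receptor of the 9 that changed by 2-fold or more.

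**Figure D1:**
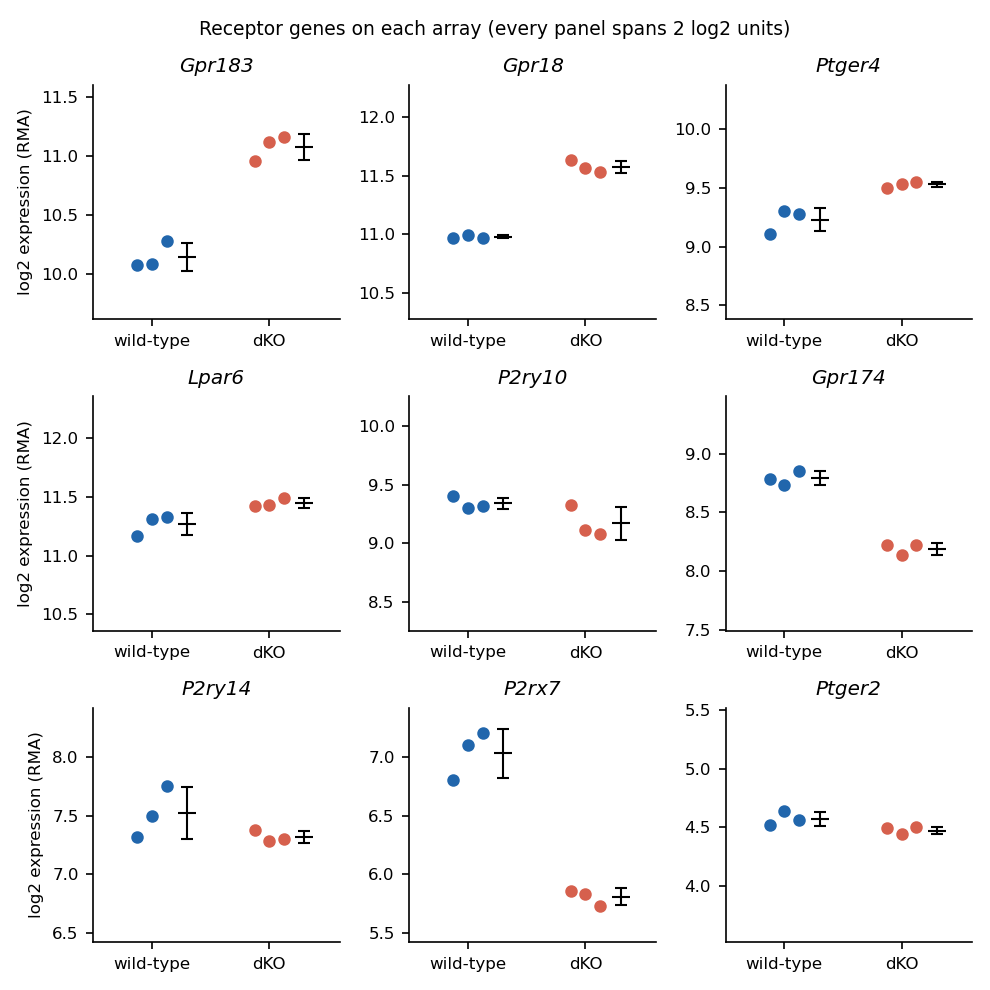
Log2 intensity of the 9 receptors on each of the 6 arrays, with blue points for wild-type arrays, red points for dKO arrays and a black bar for the mean ± SD of 3 arrays; every panel spans 2 log2 units. *Gpr183* and *Gpr18* lie higher on every dKO array than on any wild-type array, *P2rx7* and *Gpr174* lie lower, and the arrays of *P2ry10* and *P2ry14* overlap.

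The sequence before the transcription start is shown for the 4 receptors with the smallest p-values. Each line is the 250 bases upstream of the RefSeq start (GRCm38.p6), written along the strand of the gene. Capitals mark the letters TGTTTA or, on the other strand, TAAACA, which form the core bound by forkhead factors. The windows are chr14:121965194-121965443 (minus strand) for *Gpr183*, chr14:121915889-121916138 (minus) for *Gpr18*, chr5:122643677-122643926 (plus) for the upstream start of *P2rx7* and chrX:107284096-107284345 (plus) for *Gpr174*.
Gpr183: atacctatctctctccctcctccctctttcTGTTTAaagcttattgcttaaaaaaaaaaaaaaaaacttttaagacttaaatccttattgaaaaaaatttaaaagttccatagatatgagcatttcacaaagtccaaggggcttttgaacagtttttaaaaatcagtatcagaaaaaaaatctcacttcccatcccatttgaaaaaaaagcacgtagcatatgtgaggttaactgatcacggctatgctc
Gpr18: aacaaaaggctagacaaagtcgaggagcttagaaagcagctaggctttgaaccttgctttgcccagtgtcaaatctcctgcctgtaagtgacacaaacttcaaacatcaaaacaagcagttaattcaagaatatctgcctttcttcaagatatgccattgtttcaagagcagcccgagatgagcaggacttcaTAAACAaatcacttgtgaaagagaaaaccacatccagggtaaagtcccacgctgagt
P2rx7: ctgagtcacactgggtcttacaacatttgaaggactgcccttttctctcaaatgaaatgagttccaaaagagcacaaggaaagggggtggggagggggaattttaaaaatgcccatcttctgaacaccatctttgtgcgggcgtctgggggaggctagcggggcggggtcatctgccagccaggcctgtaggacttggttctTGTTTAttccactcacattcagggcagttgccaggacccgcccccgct
Gpr174: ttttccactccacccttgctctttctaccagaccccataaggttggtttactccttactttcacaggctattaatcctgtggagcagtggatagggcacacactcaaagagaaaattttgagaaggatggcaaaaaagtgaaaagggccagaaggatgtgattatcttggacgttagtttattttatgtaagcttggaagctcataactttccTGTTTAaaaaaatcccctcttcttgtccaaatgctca
The core begins 220 bases before the start of *Gpr183*, 48 before that of *P2rx7* and 37 before that of *Gpr174* on the sense strand, and 57 before that of *Gpr18* on the other strand. It is therefore present both in receptors that were higher and in receptors that were lower in dKO cells. Across all 32851 windows of this length, 12% hold these letters on either strand. Counting every listed start, 14 windows belong to the 9 receptors, and 5 of them, from 5 receptors, hold the core; the fifth is 1 of the 4 starts of *P2ry14*. The windows of *Ptger4* and *Lpar6*, which were also called, do not hold these letters.

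Other promoter features differed among the receptors. The upstream window of *Ptger4*, at chr15:5244188-5244437 (minus), holds 19 CpG dinucleotides, more than 80.3% of all windows, and 66.8% of its bases are G or C. The median window has 6 CpG. *P2rx7* has 6 at its upstream start and 4 at its other start, *Gpr18* and *Ptger2* have 3, *Gpr183* has 2, and *Lpar6* and *Gpr174* have 1. The GC box letters GGGCGG, read on both strands, occur in 32.7% of windows and in those of *Ptger4* and *P2rx7*. The letters CCACCC, a core bound by Krüppel-like factors, occur on either strand in 28.1% of windows and in those of *Ptger4*, *P2rx7* and *Gpr174*. These matches describe letters in a window and were not tested against expression. *Foxo1*, a forkhead factor, fell by 0.94 in dKO cells (SE 0.05, adjusted p = 1.82e-06) and *Klf2*, a Krüppel-like factor that *Foxo1* is known to regulate, fell by 1.19 (SE 0.06, adjusted p = 1.33e-06). Their part in the changes of the receptors was not tested.

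The oxysterol receptor is *Gpr183*, which couples to Gi and guides lymphocytes towards dihydroxylated oxysterols. Its values were 10.07, 10.08 and 10.28 on the wild-type arrays and 10.96, 11.12 and 11.16 on the dKO arrays. Every dKO array lay above every wild-type array, and the lowest dKO value exceeded the highest wild-type value by more than the spread within either genotype. The mean rose from 10.14 ± 0.12 to 11.08 ± 0.11 (SD, n = 3), a 1.91-fold increase (log2 difference 0.93, 95% interval 0.77 to 1.10, adjusted p = 1.52e-05). By size of increase, *Gpr183* stood at place 60 among all genes tested. A list of 6 genes that make or break down its ligand was measured in full, and none passed the test in either direction, with differences from -0.10 to 0.10. On average 2 of them lay below the first quartile of genes, and all 6 lay below the array median. At such intensities the missing calls say little about ligand supply.

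*Gpr18* encodes a Gi-coupled receptor of lymphocytes for which N-arachidonyl glycine is a proposed ligand. Its values were 10.97, 10.99 and 10.97 on the wild-type arrays and 11.63, 11.56 and 11.53 on the dKO arrays. The groups were far apart against a spread of 0.01 in wild-type and 0.05 in dKO arrays. The mean rose 1.51-fold, from 10.98 to 11.57 (log2 difference 0.59, 95% interval 0.49 to 0.70, adjusted p = 1.55e-05).

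*Gpr18* and *Gpr183* lie next to each other on chromosome 14, both inside the body of *Ubac2*, which encodes a ubiquitin-associated membrane protein. *Ubac2* itself was 10.63 in wild-type and 10.55 in dKO cells (log2 difference -0.08, SE 0.05, adjusted p = 0.289). *Dock9*, a guanine nucleotide exchange factor for Cdc42 beyond *Ubac2*, was higher by 0.48 (SE 0.08, adjusted p = 0.00184, and 0.0674 with the methods' t-test). The value of the receptor minus that of *Ubac2* was higher on every dKO array than on any wild-type array, by 1.01 for *Gpr183* and by 0.67 for *Gpr18*. An exact two-sided permutation test of each such difference gave p = 0.10, the smallest value that 3 against 3 arrays allow. These pairs of neighbours were chosen after their values had been seen, and adjustment over the 6 pairs compared left each exact permutation p at 0.10.

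**Figure D2:**
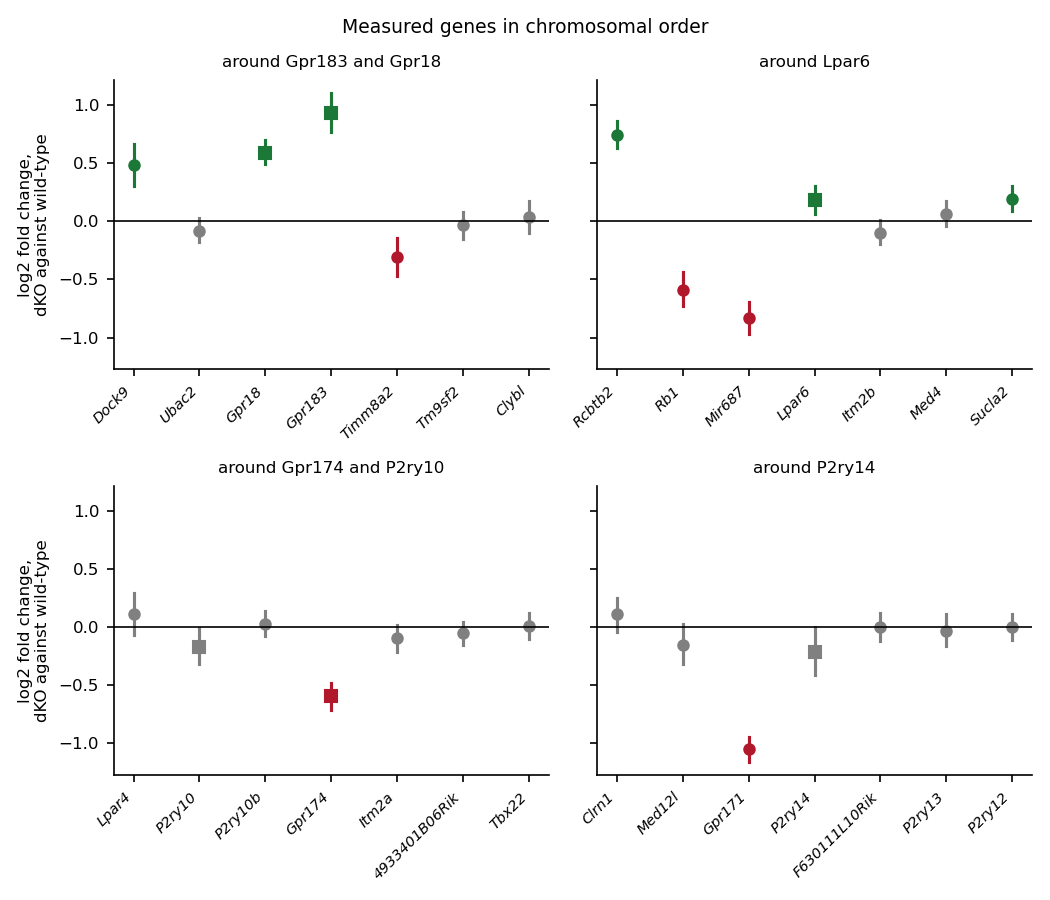
Log2 difference (dKO minus wild-type) of the measured genes in chromosomal order around *Gpr183*, *Lpar6*, *Gpr174* and *P2ry14*, with the 95% interval from limma, receptors as squares, other genes as circles, and green, red and grey for higher, lower and not called. *Gpr183* and *Gpr18* rose while their host gene *Ubac2* did not pass the test, and *Gpr171* beside *P2ry14* fell by 1.05.

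Prostaglandin E2 acts on T-cells mainly through EP2 and EP4, both coupled to Gs and encoded by *Ptger2* and *Ptger4*. *Ptger4* read 9.11, 9.30 and 9.28 on the wild-type arrays and 9.50, 9.53 and 9.55 on the dKO arrays. The groups did not overlap, and the wild-type arrays varied more than the dKO arrays. The increase was 1.23-fold (9.23 ± 0.10 to 9.53 ± 0.02, log2 difference 0.30, 95% interval 0.17 to 0.42, adjusted p = 0.00436), and it did not pass with the methods' t-test (adjusted p = 0.0563). *Ptger2* read 4.52, 4.64 and 4.56 in wild-type and 4.49, 4.44 and 4.50 in dKO cells. All 6 values lay below the first quartile of genes, so that the probe set gave little signal in either genotype, and the difference of -0.10 (95% interval -0.21 to 0.01) did not pass the test (adjusted p = 0.203). Of 9 measured genes that synthesise, degrade or export prostaglandin E2, 3 were higher and 1 was lower, against 13.1% and 10.0% of all genes. *Ptges3*, a co-chaperone also described as a cytosolic prostaglandin E synthase, rose by 0.50 (adjusted p = 2.20e-04), and *Cbr1*, a carbonyl reductase that can consume the ligand, rose by 0.54 (adjusted p = 4.68e-04). *Abcc4*, an exporter of prostaglandins and cyclic nucleotides, fell by 0.40 (adjusted p = 0.00204), a call lost with the methods' t-test (adjusted p = 0.06), by which no gene of the list was lower.

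Lysophospholipids are sensed by *Lpar6*, *P2ry10* and *Gpr174*. LPAR6 is a G12/13-coupled receptor for lysophosphatidic acid. P2RY10 and GPR174 recognise lysophosphatidylserine, and GPR174 is known to restrain T-cells. *Gpr174* was 8.78, 8.73 and 8.85 on the wild-type arrays and 8.22, 8.14 and 8.22 on the dKO arrays, so that the highest dKO array lay below the lowest wild-type array. The fall was 1.51-fold (8.79 ± 0.06 to 8.19 ± 0.05, log2 difference -0.59, 95% interval -0.71 to -0.48, adjusted p = 2.73e-05), which left 66.3% of the wild-type level. *Gpr174* and *Gpr18* therefore changed by the same factor in opposite directions.

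*Lpar6* was 11.17, 11.31 and 11.33 in wild-type and 11.42, 11.43 and 11.49 in dKO cells. The groups were separate but close, with a gap smaller than the range of the wild-type arrays. The 1.13-fold increase (11.27 ± 0.09 to 11.45 ± 0.04, log2 difference 0.18, 95% interval 0.06 to 0.30) passed narrowly (adjusted p = 0.0406). Without dKO replicate 1, 2 or 3 or wild-type replicate 1 or 2 it no longer passed (adjusted p between 0.0681 and 0.127), nor did it with the methods' t-test (0.123). *P2ry10* was 9.40, 9.30 and 9.32 in wild-type and 9.33, 9.11 and 9.08 in dKO cells. The dKO replicate 1 lay inside the wild-type range and the other two dKO arrays lay below it. The difference of -0.17 (95% interval -0.32 to -0.01) did not pass the test (adjusted p = 0.12), and without dKO replicate 1 it was -0.24 and did pass (adjusted p = 0.0136).

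The genomic settings of the lysophospholipid receptors showed unequal changes among neighbours. *P2ry10*, its paralog *P2ry10b* and *Gpr174* follow each other on the X chromosome. *P2ry10b* was 9.58 in wild-type and 9.62 in dKO cells (log2 difference 0.03, adjusted p = 0.721), a difference that was -0.0043 after cyclic loess normalisation. Probes of *P2ry10* and *P2ry10b* may read each other's transcript, since they are paralogs. The excess of *P2ry10* over *Gpr174*, which includes the fall of *Gpr174*, was wider by 0.43 in dKO cells, with no overlap between genotypes. Its exact two-sided permutation p of 0.10 is the smallest possible here, and the pair was chosen after its values were seen. *Lpar6* lies within *Rb1*, which encodes the retinoblastoma tumour suppressor. Host and receptor differed in direction, since *Rb1* fell by 0.59 (10.41 to 9.82, SE 0.07, adjusted p = 1.47e-04). *Mir687*, also within *Rb1*, was lower by 0.83 (SE 0.06, adjusted p = 1.41e-05) at an intensity that fell below the first quartile of genes in dKO cells. *Rcbtb2*, which lies beside *Rb1*, was higher by 0.74 (SE 0.05, adjusted p = 7.01e-06).

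Of 18 measured genes of lysophospholipid metabolism, 3 were higher and 3 were lower, against 13.1% and 10.0% of all genes tested. Their median difference was 0.04. The acyltransferases *Lpcat1*, which rebuilds phosphatidylcholine from its lysophospholipid, and *Agpat2*, which acylates lysophosphatidic acid, rose by 0.49 (adjusted p = 5.63e-05) and 0.48 (adjusted p = 3.23e-04). *Plpp5*, a lipid phosphate phosphatase, fell by 0.82 (adjusted p = 8.39e-05), and *Napepld*, a phospholipase D that produces N-acylethanolamines, fell by 0.65 (adjusted p = 1.28e-04).

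The nucleotide receptors are *P2rx7* and *P2ry14*. P2RX7 opens at high ATP concentrations, and in mouse T-cells it leads to shedding of CD62L and to cell death. *P2rx7* read 6.80, 7.10 and 7.20 on the wild-type arrays and 5.86, 5.83 and 5.73 on the dKO arrays. The lowest wild-type array lay well above the highest dKO array, although wild-type replicate 1 lay below the other two wild-type arrays. The mean fell 2.33-fold, from 7.03 ± 0.21 to 5.81 ± 0.07 (log2 difference -1.22, 95% interval -1.43 to -1.02, adjusted p = 1.15e-05), which left 42.8% of the wild-type intensity. All dKO values were below the array median, where background signal can shrink a measured fold. Of all genes tested, 115 were lower by 2-fold or more, and *P2rx7* stood at place 65 by size of decrease. *P2rx4*, the neighbouring ATP-gated channel gene on chromosome 5, was 8.03 and 8.14 (log2 difference 0.11, adjusted p = 0.142).

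Genes known to act with P2RX7 in pore formation, shedding and the inflammasome include *Nlrp3*, *Casp1*, *Il1b* and *Il18*. In both genotypes these 4 lay below the first quartile of genes, where signal and array background are hard to separate. A list of 13 such genes was measured. Of these 5 were lower and none was higher, with 3 lower when dKO replicate 1 or dKO replicate 2 was left out and 2 lower with the methods' t-test, and the median difference was -0.07. *Pycard*, the adaptor of the inflammasome, fell by 0.62 (9.97 to 9.35, SE 0.05, adjusted p = 2.19e-05), and *Panx1*, a channel that releases ATP, fell by 0.25 (SE 0.05, adjusted p = 0.00656, and 0.0533 with the methods' t-test).

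P2RY14 is a Gi-coupled receptor for UDP-glucose. *P2ry14* read 7.32, 7.50 and 7.75 on the wild-type arrays and 7.38, 7.28 and 7.30 on the dKO arrays. The groups overlapped through wild-type replicate 1, and the wild-type arrays had the widest spread of any receptor examined. The difference was -0.21 (95% interval -0.41 to 0.00, adjusted p = 0.156), and without wild-type replicate 1 it was -0.31 and passed (adjusted p = 0.022). *P2ry14* lies within *Med12l*, which encodes a Mediator subunit, beside the related receptor gene *Gpr171*. *Med12l* differed by -0.15 (adjusted p = 0.234), whereas *Gpr171*, which encodes a receptor for a neuropeptide that dampens T-cell activation, was 9.83, 9.84 and 9.92 in wild-type and 8.85, 8.75 and 8.84 in dKO cells. It fell by 1.05 (SE 0.05, adjusted p = 6.35e-07). The difference between the pair, which includes this fall, changed by 0.85 with no overlap between genotypes. Its exact two-sided permutation p of 0.10 is the smallest possible here, and the pair was chosen after its values were seen.

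Over all receptors, 43 neighbouring genes that are not themselves members were tested, and 6 were higher, 7 were lower and 30 did not pass the test. Among all genes tested, 13.1% were higher and 10.0% were lower, and no test of a region was made.

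Genes listed for the synthesis, breakdown and transport of ATP, UDP-glucose and adenosine changed in both directions. Of 19 measured, 4 were lower and 5 were higher, against 2 and 2 with the methods' t-test. The largest fall was that of *Dpp4*, a surface peptidase that in humans also binds adenosine deaminase, by 1.56 (10.24 to 8.68, SE 0.08, adjusted p = 1.31e-06). *Adk*, adenosine kinase, fell by 1.07 (SE 0.08, adjusted p = 8.09e-06), and *Ada*, adenosine deaminase, fell by 0.59 (SE 0.08, adjusted p = 7.20e-04, and 0.0504 with the methods' t-test). Both enzymes consume adenosine, the ligand of the receptor that was not analysed here. *Slc29a1*, a nucleoside transporter, rose by 0.22 (adjusted p = 0.00827). *Ugp2*, which makes UDP-glucose, rose by 0.27 (adjusted p = 0.00841, and 0.0781 with the methods' t-test), and *Ugdh*, which oxidises it, rose by 0.25 (adjusted p = 0.00342).

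**Figure D3:**
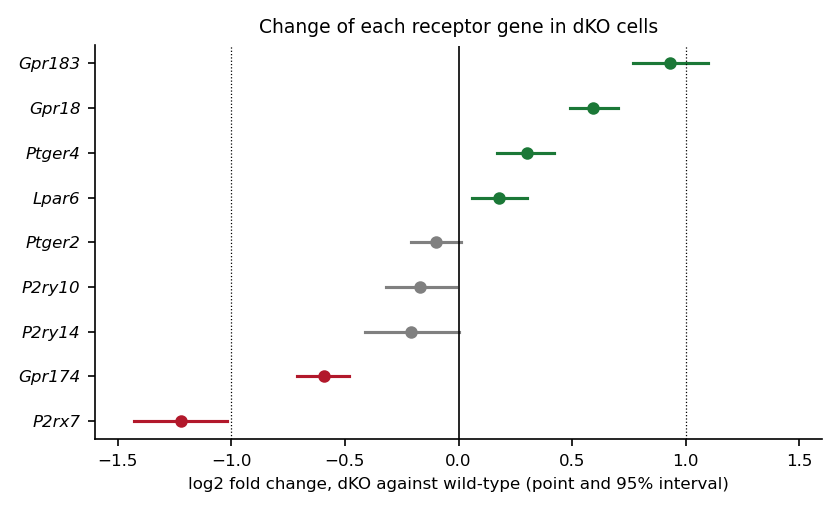
Log2 difference (dKO minus wild-type) of the 9 receptors with the 95% interval from limma, ordered by size, in green (called higher), red (called lower) or grey (not called), with dotted lines at a 2-fold change. *P2rx7* at -1.22 and *Gpr183* at 0.93 mark the ends of the range.

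Other lipid, nucleotide and proton-sensing receptors were taken as a wider list of 40 measured genes. Of these 4 were lower and 2 were higher, against 10.0% and 13.1% of all genes tested, and their median difference was -0.03. *Ptgir*, the prostacyclin receptor and like EP4 a Gs-coupled receptor, was 8.01, 8.16 and 8.15 in wild-type cells and fell on all dKO arrays, to a mean of 6.84 (log2 difference -1.26, SE 0.08, adjusted p = 3.53e-06). *Gpr65*, a proton-sensing receptor, rose by 0.44 (10.72 to 11.16, SE 0.05, adjusted p = 1.88e-04). *Cnr2*, the leukocyte cannabinoid receptor, was higher by 0.20 (adjusted p = 0.0446), a call that was kept without dKO replicate 2 and lost without any other single array (adjusted p between 0.0651 and 0.132). *Cysltr2*, a leukotriene receptor, was lower by 0.34 (adjusted p = 7.99e-04) at intensities below the first quartile of genes.

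Downstream of the receptors, 30 measured genes encode G protein subunits or G12/13 effectors. Of these 7 were higher and 3 were lower, against 13.1% and 10.0% of all genes tested. *Gnaq*, the Gq alpha subunit, rose by 0.71 (SE 0.06, adjusted p = 3.46e-05) and *Gnb5*, an atypical beta subunit, rose by 0.83 (SE 0.06, adjusted p = 1.61e-05). Of the RhoA exchange factors that G12/13 receptors use, 2 were higher and 1 was lower. *Arhgef12* rose by 0.92 (6.90 to 7.82, SE 0.09, adjusted p = 5.11e-05) and *Arhgef11*, named after its values were seen, rose by 0.25 (8.73 to 8.97, SE 0.05, adjusted p = 0.00524). *Arhgef1*, the form typical of lymphocytes, fell by 0.33 (11.16 to 10.83, SE 0.05, adjusted p = 6.34e-04). *Gng2*, a gamma subunit, fell by 0.42 (adjusted p = 4.05e-04).

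The cyclic AMP pathway, which EP2, EP4 and the adenosine receptor raise, had 33 measured genes. Of these 7 were higher and 6 were lower, against 13.1% and 10.0% of all genes tested, with a median difference of -0.01. *Adcy7* and *Adcy6*, which encode adenylyl cyclases, fell by 0.71 (10.05 to 9.33, SE 0.05, adjusted p = 1.22e-05) and by 0.69 (9.26 to 8.57, SE 0.05, adjusted p = 1.29e-05). *Prkar2a*, a regulatory subunit of protein kinase A, rose by 0.82 (SE 0.10, adjusted p = 2.11e-04). *Akap13*, an anchor of this kinase, fell by 0.45 (adjusted p = 4.73e-04) and *Crtc3*, a CREB coactivator, fell by 0.31 (adjusted p = 0.00148).

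**Figure D4:**
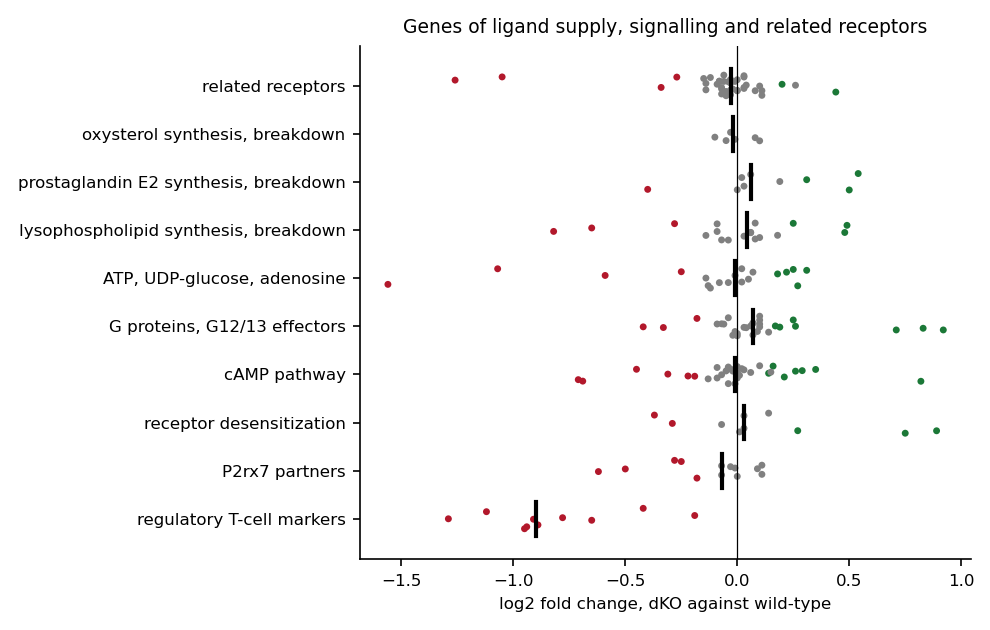
Log2 difference (dKO minus wild-type) of every measured gene in the receptor, ligand and signalling lists and among regulatory T-cell markers, with called genes in green (higher) or red (lower) and a bar at the median of each list. The medians lie between -0.07 and 0.07 except for the regulatory T-cell markers at -0.90, and called genes lie on both sides in all lists but those of oxysterol, of P2RX7 and of these markers.

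The genes whose values over the 6 arrays ran closest to each of the 3 receptors with the smallest p-values were sought by the root mean square of the difference, after centring each gene on its mean. For *P2rx7* these were *Ecm1* (0.082), *Igsf23* (0.085) and *Edaradd* (0.086), with differences between genotypes of -1.16, -1.13 and -1.14. For *Gpr183* they were *Arhgef12* (0.045), *Cbarp* (0.054) and *Bmpr2* (0.069), and for *Gpr18* they were *Cd82* (0.014), *Rhoh* (0.024) and *Supt3* (0.030). The measure is a description over 6 arrays that fall into 2 genotypes, and it is close to a search for genes with the same fold change.

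The sorted population was checked with markers. All 10 measured markers of mature CD4 SP thymocytes lay above the first quartile of genes, and their summed linear intensity was 39200 to 41700 in wild-type and 40500 to 41000 in dKO arrays. By their own tests 3 were lower, *Cd5* by 0.43 (adjusted p = 0.00226), *Zbtb7b* by 0.27 (adjusted p = 0.0221) and *Lat* by 0.15 (adjusted p = 0.0289), and *Cd28* was higher by 0.24 (adjusted p = 0.00584). The call of *Lat* was lost without any single array. The lower count was 1 without dKO replicate 1, wild-type replicate 2 or wild-type replicate 3 and with the methods' t-test, and the higher count was 2 without wild-type replicate 1 and with the methods' t-test. Markers of regulatory T-cells moved with the genotype. All 10 were lower, with a median of -0.90, among them *Foxp3*, the lineage factor, by 0.89 (adjusted p = 1.56e-06), and their sum was 3130 to 3290 in wild-type and 1670 to 1870 in dKO arrays. None of them was at background in wild-type cells, and their part in the falls of *P2rx7* and *Gpr174* was not tested. In RNA from a bulk population, fewer cells of a type and less RNA per cell cannot be told apart. Markers of DP thymocytes summed to 3990 to 4270 in wild-type and 5030 to 5810 in dKO arrays, with 4 of 11 higher and 3 lower. The brightest marker of this list, a chemokine receptor, weighs most in the sum. Its difference of 0.25 did not pass the test (adjusted p = 0.119). The lower count was 1 without dKO replicate 2 or 3 or wild-type replicate 1 or 2 and with the methods' t-test, which left 2 higher. *Dntt*, the terminal transferase, rose by 1.52 (adjusted p = 1.39e-05) and *Cd8b1*, the CD8 beta chain, rose by 0.54 (adjusted p = 3.80e-05). In the other direction, *Spo11* fell by 0.86 (adjusted p = 5.09e-05), *Rag1*, of the recombinase, by 0.55 (adjusted p = 0.0439) and *Arpp21* by 0.25 (adjusted p = 0.0224). *Cd8a*, named after its values were seen, differed by -0.17 (adjusted p = 0.109). The part of these markers in the increases of *Gpr183* and *Gpr18* was not tested.

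Receptors such as *Gpr183* and *P2rx7* are also abundant in other blood cells. Of 9 measured B-cell markers 1 was lower (*Cd79b*, by 0.63, adjusted p = 1.19e-05), with sums of 414 to 427 in wild-type and 367 to 373 in dKO arrays and with *Cd79a*, *Ms4a1* and *Ebf1* below the first quartile of genes. Of 12 macrophage and dendritic cell markers 2 were lower and 1 was higher, with sums of 624 to 683 and 604 to 795. The lower markers were *Itgam*, by 0.78 (adjusted p = 6.78e-05), and *Cd68*, by 0.31 (adjusted p = 0.0032). The higher marker was *Lyz2*, at 6.75, 6.02 and 5.48 on the dKO arrays (adjusted p = 0.0429). The dKO replicate 1 was also the highest array for *Cd74*, at 7.73 against 6.36 in dKO replicate 3. The difference of *Cd74* was 0.49 and did not pass the test (adjusted p = 0.27). No gene of this list was higher with the methods' t-test or without any single array other than dKO replicate 3, without which 2 were higher. Of 10 markers of natural killer and innate-like T-cells 1 was lower, a call lost without dKO replicate 1 and with the methods' t-test, and none was higher, with sums of 689 to 769 in wild-type and 623 to 665 in dKO arrays. Of 12 stromal markers 1 was lower and 1 was higher (1820 to 1910 and 1470 to 1570), and of 5 erythroid and platelet markers 1 was lower, a call lost with the methods' t-test. The lower stromal marker was *Pecam1*, which fell by 0.51, from 10.24 to 9.73 (adjusted p = 8.98e-05). It is the brightest marker of this list and weighs most in the sum, so the lower sum does not describe the list as a whole. Of the stromal markers, 2 were lower without wild-type replicate 2 and 2 were higher without wild-type replicate 3.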

How the data were processed

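RNA from 3 wild-type and 3 dKO samples was hybridised to Affymetrix mouse arrays, which the study's methods call Gene and its design text Exon arrays. The authors deposited log2 intensities after robust multi-array averaging (RMA) in Partek, with no version stated. Of 25254 rows, 21496 had 1 gene symbol in GEO's platform annotation, 1565 several and 2193 none, and 21415 of the symbols matched RefSeq genes (GRCm38.p6). Each of 19752 genes was represented by its brightest row. Each receptor had 1 row.

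Genotypes were compared with limma 3.58.1 in R 4.3.3 (lmFit and eBayes) and Benjamini-Hochberg adjustment at 0.05, which was first tested on simulated data. Single differences between neighbours were tested by exact permutation, which for 3 against 3 arrays cannot go below 0.10. Python 3.11.15 with scipy 1.17.1 and matplotlib 3.10.9 was used for summaries. The number of arrays limits the precision. RMA quantile normalisation removes any shift common to all genes. Alternatives were a further quantile or cyclic loess normalisation, filters on dim genes, averaging a gene's rows, and all rows. Others were an intensity trend, a plain t-test, a replicate block, and leaving out each array. The study names Partek for its arrays and states no t-test for them.

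The receptors and gene lists were chosen with earlier results of these data known. Named genes were all receptors, *Kdm6a*, *Kdm6b*, *S1pr1*, *Klf2* and *Foxo1*, host genes and neighbours, the 3 genes nearest in pattern, and from each list up to 5 genes with the smallest p-values, the 2 brightest, and any gene of a called count of 5 or fewer. Receptor promoters to print were chosen after their values were seen. Promoter windows are the 250 bases before each RefSeq start. Protein sequences were not used here.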

Additional observations from a re-analysis of the deposited data

How the results depend on the processing

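Across the 15 alternative fits, 124 of 133 receptor results kept their direction and side of the threshold, 7 lost the call, 2 gained it and none reversed. *Ptger2* was too dim to be kept among the 75% or 50% brightest genes. With the plain t-test, 2 receptors were called higher in place of 4 (*Ptger4* at 0.30, adjusted p = 0.0563, and *Lpar6* at 0.18, adjusted p = 0.123, lost the call). Over all genes 1392 were then higher and 1173 lower in place of 2587 and 1976. Leaving out single arrays, the log2 difference ranged from 0.13 to 0.21 for *Lpar6*, -0.24 to -0.12 for *P2ry10* and -0.31 to -0.091 for *P2ry14*. *P2ry10b* was -0.0043 under cyclic loess normalisation. Of 65 other named genes called, *Pecam1*, *Itgam* and *Cd68* not counted, 11 were lost with the plain t-test (*Dock9*, *Cnr2*, *Abcc4*, *Ada*, *Panx1*, *Ugp2*, *Rag1*, *Arpp21*, *Cd5*, *Zbtb7b* and *Lyz2*). Genotypes share replicate numbers, and deviations of same-numbered arrays correlated at 0.099, 0.024 and 0.07, against -0.098 to 0.04 for the other pairs. The same-numbered array was the best match for dKO replicates 1 and 3, and wild-type replicate 3 was the best for dKO replicate 2 (0.04). Values this small do not settle whether the arrays were paired. With the replicate number as a block, 4 receptors were higher and 2 lower, as without it, and over all genes 2574 and 1970; among the named genes *Lat* lost its call (adjusted p = 0.0524) and *Cd74* gained one (adjusted p = 0.022). Signal close to background limits *Ptger2* and the dKO values of *P2rx7*.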

Other observations

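Receptor kinases and beta-arrestins, which switch off G protein-coupled receptors after stimulation, were measured together with arrestin-domain genes as a list of 10. Of these, 3 were higher and 2 were lower in dKO cells, against 13.1% and 10.0% of all genes tested. *Arrdc4* and *Arrdc3*, which encode arrestin-domain proteins, rose by 0.89 (5.95 to 6.85, SE 0.08, adjusted p = 2.82e-05) and by 0.75 (8.54 to 9.29, SE 0.08, adjusted p = 8.14e-05). *Txnip*, of the same family, rose by 0.27 (12.35 to 12.62, SE 0.04, adjusted p = 0.0017). *Grk6*, a receptor kinase of lymphocytes, fell by 0.37 (10.79 to 10.43, SE 0.05, adjusted p = 3.01e-04), and *Arrb2*, which encodes beta-arrestin 2, fell by 0.29 (10.81 to 10.52, SE 0.05, adjusted p = 0.00126). The called arrestin-domain genes were thus higher and the called receptor kinase and beta-arrestin genes lower, with a median of 0.03 over the list. The list itself was not divided in this way.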
